A study of Mus musculus with 12 samples.

Results

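Hmgcs1, Mvd, Idi1, Fdps, Fdft1, Sqle, and Lss code for 7 enzymes that build sterols from acetyl-CoA units. They were chosen by name, as a group of cholesterol synthesis and uptake genes, and found as 7 of the 24421 gene symbols in the count files of 12 mouse RNA-seq libraries. All 7 are synthesis enzymes, so genes of cholesterol uptake enter below only from a wider list. All 7 also passed the filter on low counts.

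In the mevalonate pathway, HMG-CoA synthase (Hmgcs1) makes the substrate of HMG-CoA reductase. Mevalonate diphosphate, made from mevalonate, is decarboxylated to the first isoprenoid by Mvd. Idi1 interconverts the isoprenoid isomers that farnesyl diphosphate synthase (Fdps) joins. Squalene synthase (Fdft1) then commits farnesyl units to sterols, squalene epoxidase (Sqle) adds oxygen to squalene, and lanosterol synthase (Lss) closes the rings. The transcription factor SREBP2 drives these genes when sterols in the endoplasmic reticulum are low, and it is held back when they are high. In the liver the pathway feeds lipoproteins, membranes, and bile acids, and its activity is known to vary with feeding and time of day.

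The proximal promoters of 4 of the 7 genes could be read (RefSeq, GRCm38.p6). They are shown because these genes are taught as one SREBP2-driven set, and the letters show what the windows share. Each is 300 bases long, from 250 bases before the RefSeq start of the gene to 50 bases after it, and is printed 5′ to 3′ on the strand of the gene. For Hmgcs1, Idi1, and Lss that start differs from the GENCODE M21 start given further below. Capitals mark every match, on either strand, to 4 motifs: the core of the sterol regulatory element (TCACNCCAC), the CCAAT box bound by NF-Y (CCAAT, or ATTGG on the other strand), the GC box bound by Sp1 (GGGCGG, or CCGCCC), and the E-box CACGTG. The windows are chr13:119690101-119690400 (+) for Hmgcs1, chr8:122443373-122443672 (−) for Mvd, chr13:8885356-8885655 (+) for Idi1, and chr10:76531355-76531654 (+) for Lss.
Hmgcs1: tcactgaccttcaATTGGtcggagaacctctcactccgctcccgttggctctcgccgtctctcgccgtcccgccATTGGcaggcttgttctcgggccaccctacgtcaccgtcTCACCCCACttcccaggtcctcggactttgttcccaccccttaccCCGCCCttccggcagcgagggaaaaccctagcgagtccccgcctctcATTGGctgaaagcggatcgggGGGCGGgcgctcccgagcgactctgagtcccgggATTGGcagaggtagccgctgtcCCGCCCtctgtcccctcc
Mvd: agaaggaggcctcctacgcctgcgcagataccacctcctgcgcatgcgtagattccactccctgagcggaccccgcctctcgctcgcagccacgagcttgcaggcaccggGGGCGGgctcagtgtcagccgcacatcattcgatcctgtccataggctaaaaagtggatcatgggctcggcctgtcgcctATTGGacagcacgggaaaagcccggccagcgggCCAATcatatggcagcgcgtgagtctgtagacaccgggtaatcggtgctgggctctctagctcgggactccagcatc
Idi1: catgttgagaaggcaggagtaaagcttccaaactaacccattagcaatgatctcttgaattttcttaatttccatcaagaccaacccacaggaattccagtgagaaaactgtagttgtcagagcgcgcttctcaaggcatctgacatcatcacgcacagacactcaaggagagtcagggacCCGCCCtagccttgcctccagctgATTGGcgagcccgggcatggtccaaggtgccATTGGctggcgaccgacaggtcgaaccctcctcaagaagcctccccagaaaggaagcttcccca
Lss: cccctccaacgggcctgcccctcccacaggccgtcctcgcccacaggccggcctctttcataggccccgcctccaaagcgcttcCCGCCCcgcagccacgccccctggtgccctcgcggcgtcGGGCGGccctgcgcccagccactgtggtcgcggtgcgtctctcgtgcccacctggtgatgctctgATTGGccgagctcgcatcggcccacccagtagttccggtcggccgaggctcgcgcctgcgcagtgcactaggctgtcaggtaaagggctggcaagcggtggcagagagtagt

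The sterol element core was found in the Hmgcs1 window alone among these 4, at bases 114 to 122, and 1.24% of 32851 promoters of the same length hold it. CCAAT boxes were found in all 4 windows, 4 in Hmgcs1, 2 each in Mvd and Idi1, and 1 in Lss, against 37.4% of all promoters with at least 1. GC boxes were also found in all 4, with 3 in Hmgcs1, 2 in Lss, and 1 each in Idi1 and Mvd, against 35.7% of all promoters. None of the 4 windows held an E-box, which 7.15% of all promoters hold. These matches are letters in a window and not measured binding sites.

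The libraries came from 6 aged mice on a standard diet, each giving 1 liver tumor and 1 sample of its non-tumoral liver. The labels give 4 groups, with p21Tert livers (n = 4), p21Tert tumors (n = 4, from those mice), p21TertCi livers (n = 2), and p21TertCi tumors (n = 2, from those mice). Each mouse and its liver are called here by the name of its tumor, which carries the number of the animal. In p21Tert mice the Cdkn1a (p21) promoter drives telomerase reverse transcriptase, and in p21TertCi mice it drives a catalytically inactive form, and the mice keep the endogenous Tert gene, although loss of its locus is described for some tumors of these models. No wild-type mouse is among the 6. By the mutations described for these mice, tumors fall into 3 driver classes: Ctnnb1 (T-HCC662 and T-HCC663), Egfr or Hras (T-HCC941 with Egfr and TCi-HCC981 with Hras), and neither (T-HCA992 and TCi-HCA984, both adenomas). The other 4 are carcinomas by their names, but the diagnosis listed for T-HCC663 is an adenoma. Both Ctnnb1 tumors are p21Tert, so Ctnnb1 mutation cannot be told apart from genotype in a comparison of all tumors by genotype. Comparisons of the Ctnnb1 class with the other tumors or with all livers, which include p21TertCi mice, also mix driver and genotype.

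Library totals ran from 14571716 to 26170661 counts, and levels are given as CPM, the counts of a gene relative to the TMM-scaled total of its library, in which 1 read is worth 0.0358 to 0.0758. Tert was read in every library at 4.69 to 26.1 CPM and Cdkn1a at 1.62 to 81.0 CPM, and neither separates the transgene from the endogenous gene. Summed over 6 hepatocyte markers, levels were 29787 to 54369 CPM in livers, 15693 and 31802 CPM in the Ctnnb1 tumors, and 64718 to 94354 CPM in the other 4. Alb carried the sum in these 4, with a mean of 62401 CPM against 21090 CPM in livers, and Apoa1 also had a higher mean there, while Ttr, Cps1, Serpina1c, and Hnf4a had lower means than in livers. The 5 bile duct markers summed to 50.9 to 134 CPM in livers and 17.8 to 1064 CPM in tumors, with the highest sum in a tumor with neither driver, where Spp1 alone made up 1037 CPM. The means of Krt7, Krt19, and Epcam were lower in tumors than in livers, and those of Spp1 and Sox9 were higher. Markers of T cells, B cells, macrophages, endothelial cells, and stellate cells overlapped between livers and tumors in their sums. Cd3e, Krt7, and Krt19 were each at 0 in 1 library and Ms4a1 in 3. In bulk RNA, fewer cells of a type and less RNA per cell cannot be told apart, and the part of cell composition in the values below was not tested.

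Exon length was taken as all annotated exons of a gene joined (GENCODE M21), from 1859 bases for Mvd to 10787 for Lss. The order of the genes depends on this choice, and the annotation used for counting is not given. Per kilobase of exon, Hmgcs1 stood apart from the other 6 genes in livers. Its median level over 6 livers was 87.8 CPM per kb and its lowest liver was at 44.6, above the highest liver of Fdft1 at 42.6. Fdft1 followed with a median of 34.3, then Fdps at 22.4, Mvd at 15.8, Sqle at 10.9, Lss at 6.95, and Idi1 at 6.42 CPM per kb, and each of these neighbours overlapped the next in its range over livers. In tumors Hmgcs1 was again first at a median of 115 CPM per kb, Fdft1 was at 35.7, and Sqle came next at 32.0. Mvd (25.0), Fdps (15.5), Lss (10.3), and Idi1 (8.58 CPM per kb) followed, with overlapping ranges.

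Tumors were first compared with livers over all 6 mice. None of the 7 genes passed the test (edgeR, adjusted p under 0.05), where 10.7% of 13822 genes did. At an unadjusted p under 0.05 (edgeR), Sqle and Lss passed, beside 3618 of all 13822 genes. DESeq2 called Sqle alone of the 7. The 7 log2 fold changes were all above 0, from 0.38 to 1.59 with a median of 0.68, while the median over all genes was 0.01 and 50.9% of genes were above 0. Without T-HCC662, 6 of 7 were above 0 and the median was 0.38.

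Sqle had the largest of these differences. In livers it was at 4.75 CPM in the lowest, a median of 60.4, and 95.1 CPM in the highest, and in tumors at 53.8, 177, and 269 CPM. In 5 of 6 tumors Sqle lay above every liver, and in T-HCC663 alone it lay within the liver range. The share of all genes that separate to this degree is not given. The mean of Sqle was 176 CPM ± 73.6 (SD, n = 6) in tumors against 58.3 CPM ± 32.9 (SD, n = 6) in livers. The fitted fold was 3.00, a log2 fold change of 1.59 (SE 0.54, 95% interval 0.43 to 2.74, adjusted p = 0.0756, edgeR). Whether it passed turned on the tool and on single libraries: the adjusted p was 0.018 with DESeq2 (log2 fold change 1.59), 0.0335 without the liver of TCi-HCC981 (1.34), and 0.0437 without T-HCC663 (1.79).

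Lss, the next step after Sqle, ran from 27.0 to 97.1 CPM in livers (median 74.9) and from 47.5 to 390 CPM in tumors (median 111). In 3 of 6 tumors Lss lay above every liver, and the next tumor after T-HCA992, at 390 CPM, was T-HCC662 at 158 CPM. The log2 fold change of Lss was 1.13 (SE 0.47, 95% interval 0.12 to 2.13, adjusted p = 0.143, edgeR), and 0.56 without T-HCA992.

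Fdft1, the step before Sqle, overlapped in range between the tissues. It was at 68.3 to 180 CPM in livers (median 145) and at 117 to 409 CPM in tumors (median 151). Only T-HCC662, at 409 CPM, lay above every liver. The log2 fold change was 0.43 (SE 0.32, 95% interval −0.27 to 1.12, adjusted p = 0.438, edgeR), and it was 0.04 without T-HCC662.

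Of the 4 genes upstream of squalene, Hmgcs1 ran from 205 to 680 CPM in livers (median 403) and from 346 to 1295 CPM in tumors (median 528), with T-HCC662 and T-HCA992 above every liver. For Hmgcs1 the log2 fold change came to 0.68 (SE 0.38, 95% interval −0.15 to 1.51, adjusted p = 0.283, edgeR). Mvd ran from 12.9 to 59.3 CPM in livers (median 29.3) and from 20.1 to 170 CPM in tumors (median 46.4), and the same pair of tumors lay above every liver. The log2 fold change of Mvd was 0.97 (SE 0.51, 95% interval −0.13 to 2.08, adjusted p = 0.251, edgeR). Without T-HCC662 these 2 values were 0.38 and 0.41. Fdps ran from 24.9 to 177 CPM in livers and from 41.9 to 323 CPM in tumors, and its median was lower in tumors (65.4 CPM) than in livers (94.3 CPM) although the fitted log2 fold change came to 0.39 (SE 0.56, adjusted p = 0.708, edgeR). Without T-HCC662 that value was −0.12. Idi1, the lowest of the 7 per kilobase, ran from 4.66 to 50.02 CPM in livers and from 18.6 to 50.3 CPM in tumors, and the liver and the tumor of the T-HCA992 mouse were the highest of each tissue (log2 fold change 0.38, SE 0.44, adjusted p = 0.630, edgeR).

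**Figure D1:**
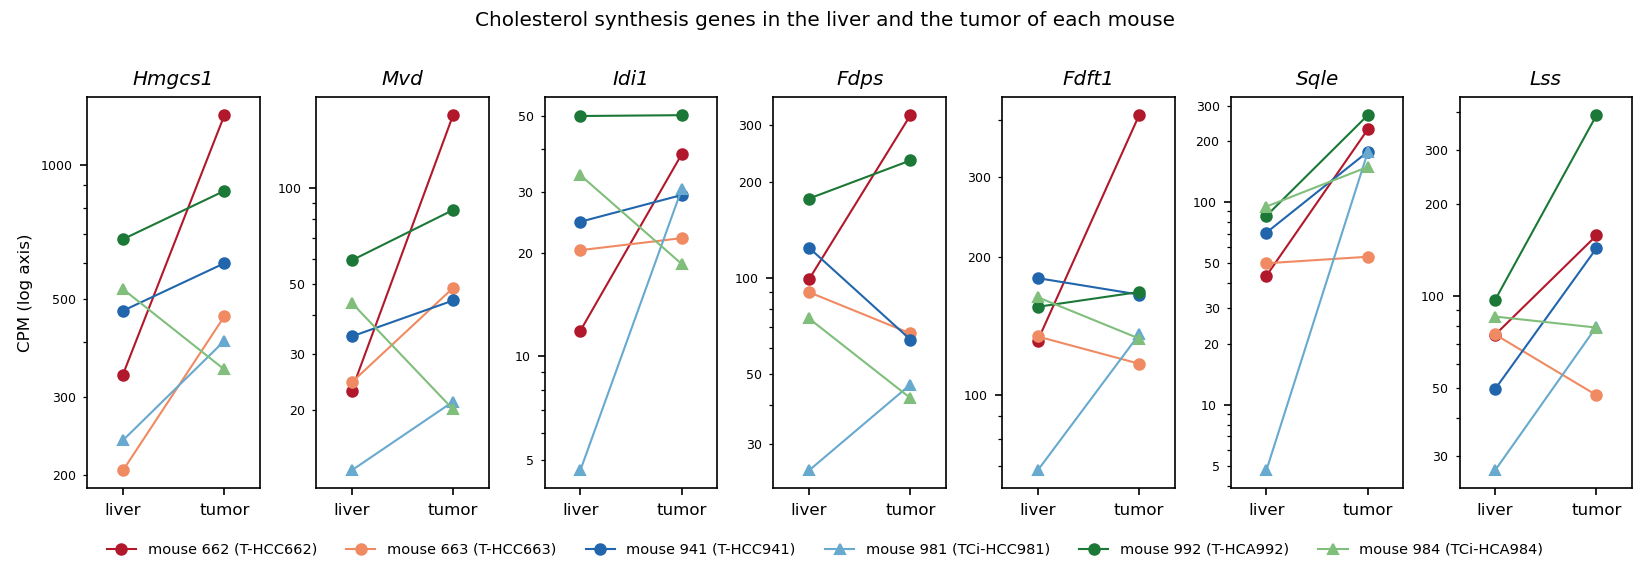
Level of each of the 7 genes (CPM, log axis) in the liver and the tumor of the 6 mice, with a line joining the 2 samples of a mouse. Sqle is higher in the tumor of every mouse, and the steepest line is that of the TCi-HCC981 mouse, whose liver was at 4.75 CPM.

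Each tumor was also set against its own liver, and the 7 genes lay on the same side in some animals and not in others. T-HCC662 was above its own liver for all 7 (differences in log2 CPM from 1.08 to 2.88, median 1.71), and so were TCi-HCC981 (0.72 to 5.19, median 0.99) and T-HCA992 (0.01 to 2.00, median 0.40). T-HCC941 was above for 5 of 7 (−0.96 to 1.53, median 0.36), and T-HCC663 for 4 of 7 (−0.66 to 1.15, median 0.11). TCi-HCA984 was above for Sqle alone (0.65) and below for the other 6, down to −1.11, with a median of −0.60. Sqle was thus above its own liver in 6 of 6 mice, by as little as 0.11 in T-HCC663. The median over all genes lay between −0.02 and 0.01 in the 6 mice.

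**Figure D2:**
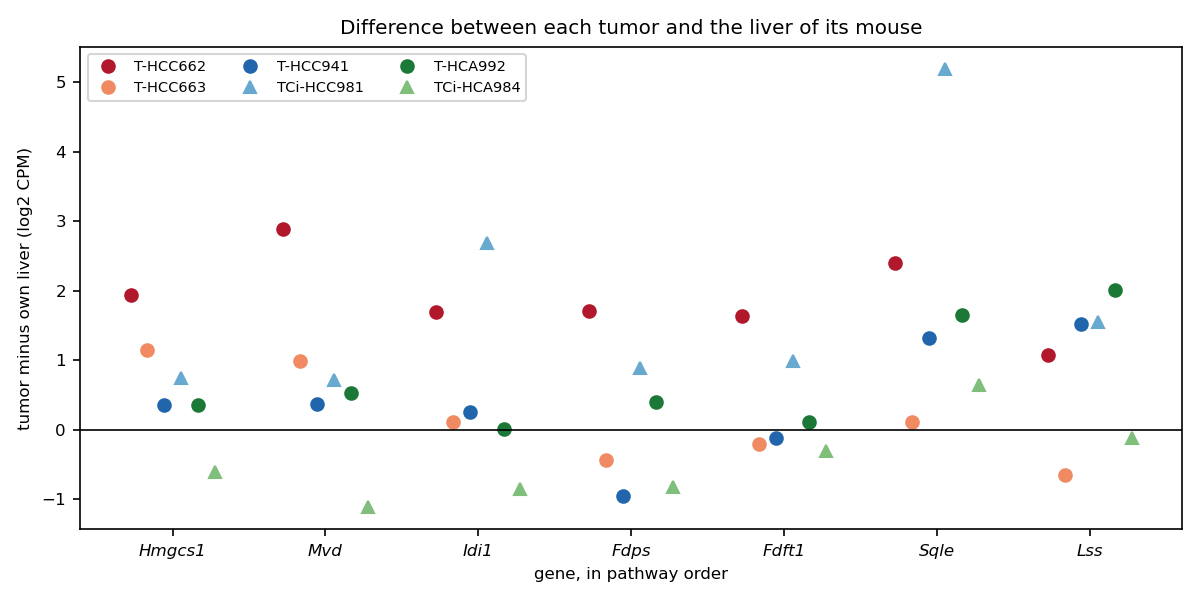
Difference in log2 CPM between each tumor and the liver of the same mouse (y axis) for the 7 genes in pathway order (x axis), 1 point per mouse. T-HCC662, TCi-HCC981, and T-HCA992 have all 7 points above 0, and TCi-HCA984 has 6 below 0.

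The liver of TCi-HCC981 bears on the size of these differences. It held the lowest of the 6 liver levels for 6 of the 7 genes (85.7%; Hmgcs1 was lowest in the liver of T-HCC663), and for 18.4% of all 13822 genes. Sqle was at 4.75 CPM there against 43.3 CPM in the next lowest liver, Idi1 at 4.66 against 11.9 CPM, and Fdps at 24.9 against 74.4 CPM. The same liver was lowest for 11 of 14 other synthesis enzymes (78.6%) and for 4 of 5 other sterol-responsive genes (80%). It was lowest for only 3 of 10 uptake genes (30%) and 1 of 9 fatty acid synthesis genes (11.1%). For circadian output genes the count was 2 of 10 (20%). These genes peak at different times of day, so that count cannot place this liver in the daily cycle. Over the 6 livers Dbp ran from 4.88 to 462 CPM and Arntl from 0.918 to 27.7 CPM. Fatty acid synthesis genes were lowest in the other p21TertCi liver, that of TCi-HCA984, for 6 of 9. At the other end, the liver of T-HCA992 was highest for 5 of the 7 genes. Where no share of all genes stands beside such a count, here or below, it does not set these genes apart from others. The liver of TCi-HCC981 also held the highest sum of the 6 macrophage markers among livers, 1314 CPM against a median of 246 CPM. Feeding state and time of collection, which are not in the labels, and cell composition were not tested.

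**Figure D3:**
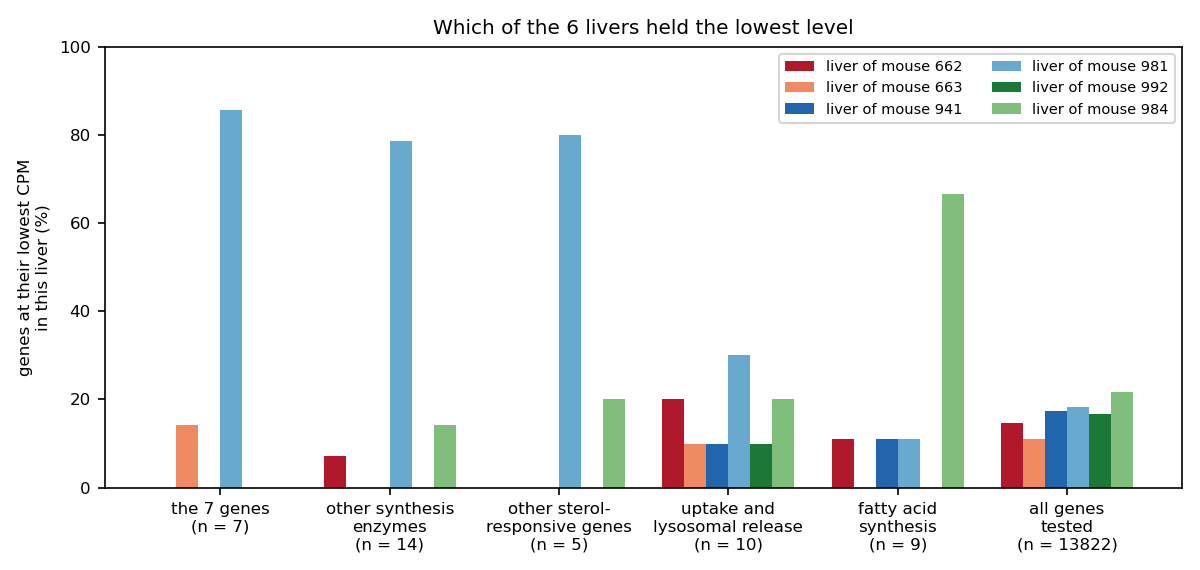
Percentage of the genes of each list (y axis) that had their lowest CPM among the 6 livers in a given liver (bars, coloured by mouse), with all genes tested beside them. The liver of TCi-HCC981 takes 85.7% of the 7 genes and 18.4% of all genes.

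Each driver class was then compared with the 6 livers, which the 3 contrasts share. In these and the later comparisons, 45.6% to 52.5% of all genes had a log2 fold change above 0. In the Ctnnb1 class, 0 of 7 passed (edgeR; 8.2% of 15182 genes did). At an unadjusted p under 0.05, 2 of the 7 and 3623 of all genes passed, and DESeq2 called none of the 7. All 7 log2 fold changes were above 0, with a median of 0.97, led by Mvd at 1.71 (SE 0.59, 95% interval 0.42 to 3.00, adjusted p = 0.101). T-HCC662 held 170 CPM of Mvd and T-HCC663 held 48.6 CPM, and only the first lies above the highest liver at 59.3 CPM. Sqle followed at 1.25 and Hmgcs1 at 1.07 (adjusted p = 0.329 and 0.222). The pair of Ctnnb1 tumors differed widely: T-HCC662 held the highest tumor level of 4 genes (Hmgcs1, Fdps, Fdft1, and Mvd) and T-HCC663 the lowest of 3 (Sqle, Lss, and Fdft1). Without T-HCC662, 5 of the 7 log2 fold changes were below 0, with Fdps at −0.59, Lss at −0.55, Fdft1 at −0.28, Idi1 at −0.16, and Sqle at −0.15. Without T-HCC663, Fdft1 passed the test (1.56, adjusted p = 0.0448, edgeR).

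In the Egfr or Hras class, 0 of 7 passed (edgeR; 18.2% of 15182 genes did). At an unadjusted p under 0.05, Sqle alone of the 7 and 5146 of all genes passed, and DESeq2 called none of the 7. Sqle was at 178 CPM in T-HCC941 and 177 CPM in TCi-HCC981, both above every liver, with a log2 fold change of 1.57 (SE 0.72, 95% interval 0.00 to 3.15, adjusted p = 0.147). The other 6 genes lay between −0.86 and 0.68. Fdps had the lowest value, −0.86 (SE 0.77, adjusted p = 0.462), with 63.9 and 46.2 CPM in the 2 tumors. Of the 7 values 5 were above 0, and without T-HCC941 3 of 7 were.

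In the tumors with neither driver, 0 of 7 passed (edgeR; 8.1% of 15182 genes did). At an unadjusted p under 0.05, Sqle and Lss passed, beside 3786 of all genes. Lss was called by DESeq2 (1.79, adjusted p = 0.0276). All 7 values were above 0, with a median of 0.57, but a block for each mouse, which sets each tumor against its own liver, put 5 of 7 below 0 (median −0.12). Lss was at 390 CPM in T-HCA992 and 79.0 CPM in TCi-HCA984, the second within the liver range (log2 fold change 1.77, SE 0.56, 95% interval 0.55 to 3.00, adjusted p = 0.0751, edgeR). Sqle was at 269 and 149 CPM, both above every liver (1.84, SE 0.71, 95% interval 0.28 to 3.40, adjusted p = 0.136). Without TCi-HCA984, Lss passed (2.50, adjusted p = 0.0286, edgeR), and without T-HCA992 it was at 0.22. The 2 tumors are from 1 p21Tert and 1 p21TertCi animal, and without T-HCA992 only Sqle and Lss stayed above 0. The pair sat at opposite ends, as T-HCA992 held the highest tumor level of 3 genes and TCi-HCA984 the lowest of 4.

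**Figure D4:**
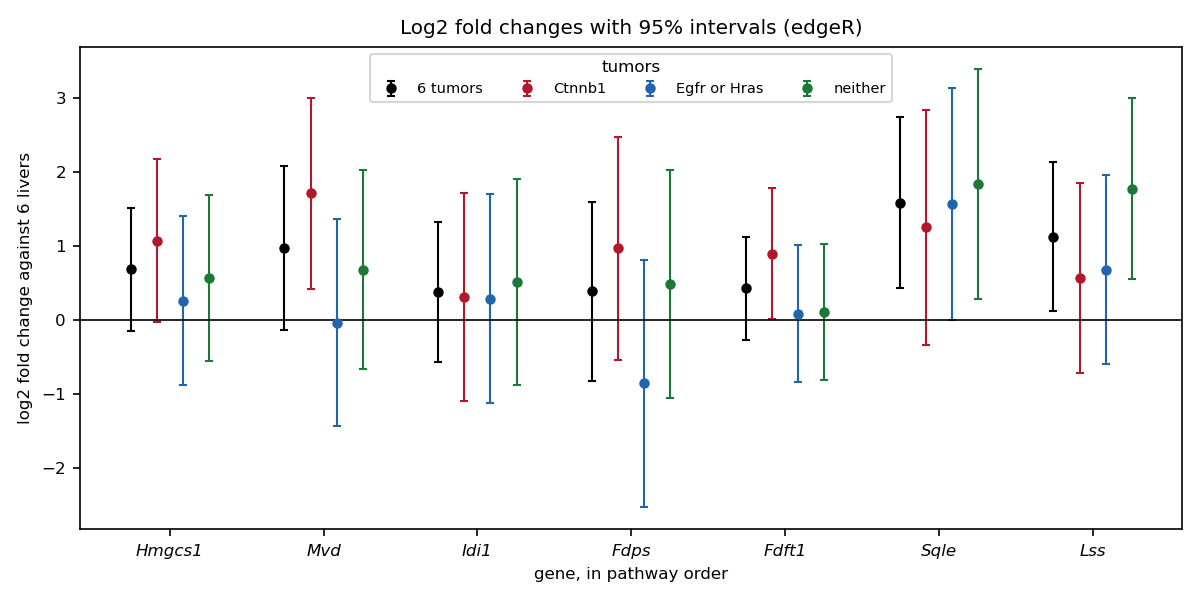
Log2 fold change against the 6 livers (y axis; edgeR, bars are 95% intervals) of the 7 genes in pathway order (x axis), for all 6 tumors and for each driver class. Sqle lies above 1 in all 4 contrasts, and Fdps runs from −0.86 in the Egfr or Hras class to 0.97 in the Ctnnb1 class.

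The difference between driver classes was tested directly. Between the Ctnnb1 tumors and the mean of the other 2 classes, 0 of 7 passed (edgeR; 12.5% of 15182 genes did). At an unadjusted p under 0.05, none of the 7 and 4587 of all genes passed, and DESeq2 called none of the 7. Mvd was 1.39 higher on the log2 scale (SE 0.65, 95% interval −0.03 to 2.82, adjusted p = 0.175), Fdps 1.16, Fdft1 0.80, and Hmgcs1 0.66, and Sqle and Lss had negative values of −0.45 and −0.66. Without T-HCC662 only Mvd was above 0, with Fdps at −0.39, Fdft1 at −0.38, and Hmgcs1 at −0.29, and without T-HCC663 or without T-HCA992 6 of 7 were above 0. The interval of the difference for Sqle ran from −2.28 to 1.37. Some circadian genes also separated these groups. Arntl was at 1.31 and 1.84 CPM in the Ctnnb1 tumors against 9.43 to 33.8 CPM in the other tumors. Dbp was at 133 and 301 CPM against 3.58 to 96.3 CPM. Npas2, Clock, and Ciart did not overlap either, while Nr1d1, Nr1d2, Per1, Per2, and Per3 did. The part of time of day in this contrast was not tested. Between the Egfr or Hras class and the class with neither driver, 0 of 7 passed and 0% of all genes did (edgeR; 1331 genes and none of the 7 at an unadjusted p under 0.05; 105 genes and none of the 7 by DESeq2), and the 7 values ran from −1.34 to −0.03, with a median of −0.31. Without T-HCA992 all 7 were above 0 (median 0.45). A block for each mouse, which here compares differences from own livers and not tumor levels, also put all 7 above 0 (median 0.64).

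Genotype was then compared. Within p21Tert mice, 0 of 7 passed between tumors and livers (edgeR; 6.49% of 15182 genes did). At an unadjusted p under 0.05, 2 of the 7 and 3499 of all genes passed, and DESeq2 called none of the 7. The 7 values were all above 0 (0.38 to 1.53, median 0.92), or 5 of 7 without T-HCC662 (median 0.59). Within p21TertCi mice, 0 of 7 passed and 0% of all genes did (edgeR; 1618 genes and none of the 7 at an unadjusted p under 0.05; 362 genes and none of the 7 by DESeq2), with 4 values above 0 and 3 below (−0.47 to 1.68, median 0.19). The highest of these was Sqle at 1.68 and the lowest Mvd at −0.47. Single livers set the direction: 1 of 7 was above 0 without the liver of TCi-HCC981 (median −0.49) and all 7 without the liver of TCi-HCA984 (median 0.97). The genotype difference in the tumor effect, an interaction, passed for 0 of 7 and 0% of all genes (edgeR; 556 genes and none of the 7 at an unadjusted p under 0.05; 6 genes and none of the 7 by DESeq2), with a median over the 7 of −0.67, which was 0.34 without the liver of TCi-HCA984 and −1.26 without that of TCi-HCC981. For Sqle the interaction was 0.15 with an interval of −2.48 to 2.78, which leaves its direction undetermined.

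Between the livers of the genotypes, 0 of 7 passed and 0% of all genes did (edgeR; 756 genes and none of the 7 at an unadjusted p under 0.05; 42 genes and none of the 7 by DESeq2). All 7 values were below 0 (−1.28 to −0.12, median −0.36), and without the liver of TCi-HCC981, 1 of the 2 p21TertCi livers, 6 of 7 were above 0 (median 0.34). Without the liver of T-HCA992, 3 of 7 were above 0 (median −0.13). Between the tumors without Ctnnb1 mutation, where each genotype has 1 Egfr or Hras tumor and 1 with neither driver, 0 of 7 passed and 0.00659% of genes did (edgeR; 1217 genes and 3 of the 7 at an unadjusted p under 0.05; 165 genes and none of the 7 by DESeq2). All 7 values were below 0, with lower levels in p21TertCi tumors (−1.74 to −0.30, median −0.97), also without any 1 of the 12 libraries. A block for each mouse, which here compares differences from own livers and not tumor levels, put 4 of 7 above 0 (median 0.31). Fdps and Lss were lowest at −1.74 each, with Lss at 143 and 390 CPM in the p21Tert tumors and 79.6 and 79.0 CPM in the p21TertCi tumors (adjusted p = 0.566). The other 14 synthesis enzymes also had negative values in this contrast (14 of 14, median −0.81), as did 9 of 9 fatty acid synthesis genes (median −2.19), and none of them passed. Over all genes 52.2% of values were above 0, with a median of 0.03.

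The rest of the pathway was read from a list of 14 other synthesis enzymes. In tumors 1 of 14 rose and none fell (edgeR; 4 at an unadjusted p under 0.05, 2 by DESeq2), no larger a share than the 10.7% of all genes that passed, with 10 values above 0 and a median of 0.26. The one that rose was Lbr, the lamin B receptor, which is also a sterol reductase, at 13.8 CPM ± 1.95 (SD, n = 6) in livers and 21.8 CPM ± 5.55 (SD, n = 6) in tumors (log2 fold change 0.65, SE 0.19, adjusted p = 0.0412). Its call was lost when any of 10 of the 12 libraries was left out, in turn. Cyp51, the demethylase that acts on lanosterol, was at 180 CPM ± 82.7 (SD, n = 6) in livers and 333 CPM ± 181 (SD, n = 6) in tumors (0.88, adjusted p = 0.222). Late steps did not share one sign: Nsdhl was at 0.81 (adjusted p = 0.217), Ebp at −0.77 (adjusted p = 0.072), and Tm7sf2 at −0.77 (adjusted p = 0.149).

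Of 11 genes for sterol sensing and SREBP processing, 0 passed (edgeR; 3 at an unadjusted p under 0.05, 2 by DESeq2). Srebf2, which codes for SREBP2, was at 0.47 (adjusted p = 0.279), and Srebf1, which codes for the form that drives fatty acid genes, at −1.01 (adjusted p = 0.140). Insig1, an SREBP target that retains SREBP in the endoplasmic reticulum, was at −0.09 (adjusted p = 0.919). Of 5 other sterol-responsive genes, 0 passed (1 at an unadjusted p under 0.05, 0 by DESeq2). Fatty acid synthesis genes (9 tested) gave 0 calls (edgeR; 0 at an unadjusted p under 0.05 and 0 by DESeq2), with a median of 0.57. The 9 genes of the non-sterol branch, which feeds prenylation, dolichol, and ubiquinone, gave 0 calls (edgeR; 1 at an unadjusted p under 0.05, 0 by DESeq2) with a median of −0.02, and 9 genes of esterification and export gave 0 calls (2 at an unadjusted p under 0.05, 1 by DESeq2) with a median of 0.40.

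For cholesterol uptake and lysosomal release, 1 of 10 genes tested rose in tumors (edgeR; 2 at an unadjusted p under 0.05, 2 by DESeq2), a share near the 10.7% of all genes that passed. This was Scarb1, the HDL receptor. It ran from 102 to 143 CPM in livers and from 153 to 269 CPM in tumors, with no overlap, and was higher in the tumor of 6 of 6 mice (log2 fold change 0.69, SE 0.17, adjusted p = 0.0229). The call was lost without the liver of T-HCC662 (adjusted p = 0.0617) and without T-HCC941 (adjusted p = 0.0519). The share of all genes without overlap is not given, here or for the bile acid genes below, so the lack of overlap is no separate support.

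Vldlr, a receptor for triglyceride-rich lipoproteins, was highest in the Ctnnb1 tumors. T-HCC662 held 31.5 CPM of it and T-HCC663 held 19.1 CPM, and it was at 1.02 to 7.62 CPM in livers, and at 0.05 to 4.26 CPM in the other 4 tumors. It rose in the Ctnnb1 class against livers (log2 fold change 3.07, adjusted p = 0.0202, edgeR) and was higher there than in the other tumors (4.32, adjusted p = 0.00861). Between tumors, a block for each mouse compares differences from own livers and not tumor levels. Both calls were lost without T-HCC662 (adjusted p = 0.143 and 0.0585), the first also without T-HCC663 (adjusted p = 0.053), and a block for each mouse ended both as well (adjusted p = 0.0563 and 0.0616). Tmem97, a sterol-responsive membrane protein that binds NPC1, ran the same way, at 375 and 208 CPM in the Ctnnb1 tumors against 99.3 to 138 CPM in the other tumors (1.40, adjusted p = 0.0260), and at 70.3 to 181 CPM in livers (1.32, adjusted p = 0.0275). Without T-HCC662 its values were 0.91 (adjusted p = 0.243) and 0.82 (adjusted p = 0.303), and a block for each mouse gave an adjusted p of 0.190 and 0.0836. Against the other tumors its call was also lost without T-HCA992, TCi-HCC981, or TCi-HCA984 (adjusted p = 0.0643, 0.077, and 0.0596).

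Npc1l1, the transporter that takes up dietary sterols in the intestine, was not detected in any liver and was read in every tumor. It had 0 counts in all 6 livers, which allows up to 0.0283 CPM over the 6 (3 counts). T-HCC662 held 213 counts and T-HCC663 held 5, against 103 and 112 in T-HCC941 and TCi-HCC981, and 132 and 13 in T-HCA992 and TCi-HCA984. The mean was 4.43 CPM ± 3.50 (SD, n = 6) in tumors, 157 times the limit pooled over the 6 livers. The lowest tumor, T-HCC663 at 0.219 CPM, was at 7.74 times that limit, a ratio left imprecise by its 5 counts. The filter on low counts left it out of the comparison of all tumors with all livers. In the model of driver classes it passed that filter through tumors alone, since every liver was at 0. Its calls there are thus no separate support for a rise. They were in the Ctnnb1 class (adjusted p = 0.0216), the Egfr or Hras class (adjusted p = 0.0108), and the class with neither driver (adjusted p = 0.0317, edgeR). The first call was lost without T-HCC662 (adjusted p = 0.157) and the last without T-HCC941, T-HCA992, or TCi-HCC981 (adjusted p = 0.0516, 0.262, and 0.0503) or with a block for each mouse (adjusted p = 0.0693).

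Bile acid synthesis, which turns cholesterol into bile acids, had the most calls of the sterol and lipid lists. In all, 6 of 11 genes fell in tumors and none rose (edgeR; 8 at an unadjusted p under 0.05, 6 by DESeq2), where 10.7% of all genes passed in either direction, and all 11 values were below 0, with a median of −1.04. Slc27a5, which activates bile acids, fell, with 823 CPM ± 186 (SD, n = 6) in livers, 272 CPM ± 73.4 (SD, n = 6) in tumors, and no overlap (−1.60, SE 0.24, adjusted p = 0.00188). Cyp7b1, an oxysterol hydroxylase, fell from a mean of 324 CPM to one of 30.6 CPM (−3.42, adjusted p = 0.00526), again with no overlap. Baat, which conjugates bile acids to taurine and glycine, fell (−1.41, adjusted p = 0.00846), and so did Hsd3b7 (−0.97, adjusted p = 0.0103). The 6 also include Nr1h4, which codes for a nuclear receptor and not an enzyme. Its call was lost when any of 7 of the 12 libraries was left out, in turn. By driver class, 3 bile acid genes fell and 1 rose in the Ctnnb1 class (8.2% of all genes passed), 9 of 11 fell in the Egfr or Hras class (18.2%), and 5 fell in the tumors with neither driver (8.1%). Of the proliferation list 5 of 7 genes rose in tumors against livers, beside the same 10.7%, and its sum was 22.5 to 40.6 CPM in livers and 28.5 to 156 CPM in tumors.

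**Figure D5:**
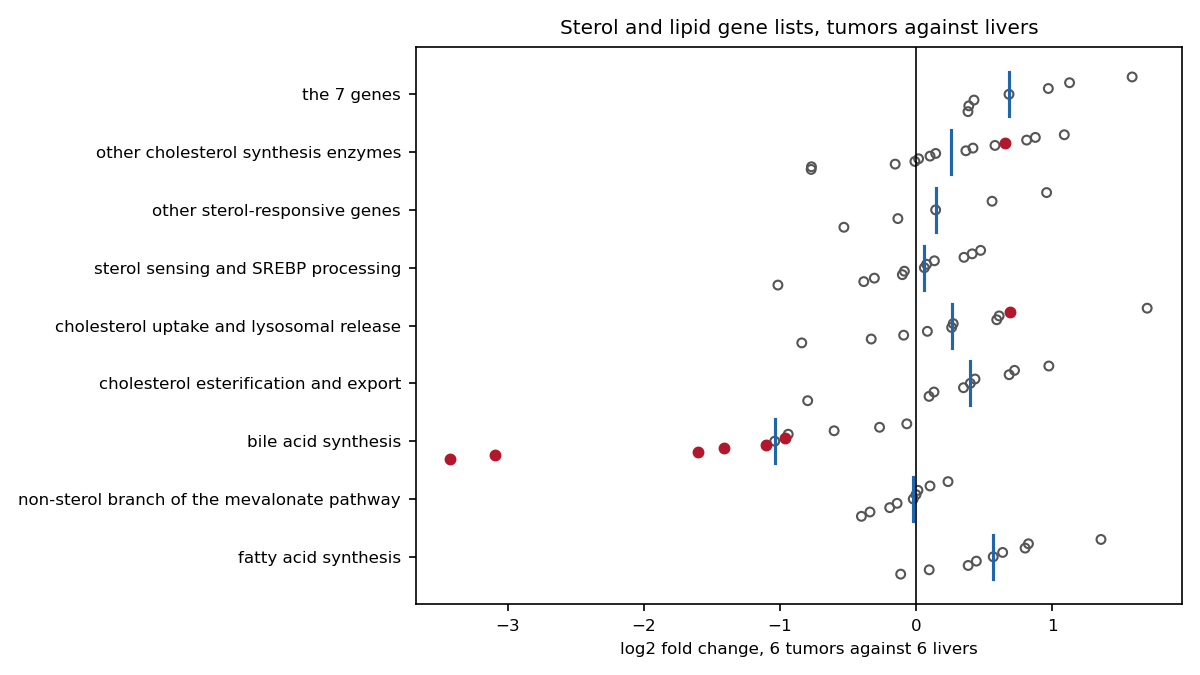
Log2 fold change of 6 tumors against 6 livers (x axis) for each gene (points) of the sterol and lipid lists (y axis), with the list median as a bar and filled points for genes that passed the test. The 7 genes are all open points above 0, and 6 bile acid synthesis genes are filled and below 0.

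Genes whose level followed the 7 most closely over the 12 libraries were ranked by Pearson r against the mean standardised log2 CPM of the 7. Cyp51 was first (r = 0.952) and Nsdhl second (r = 0.926), followed by Gpd2 (0.883), Kidins220 (0.874), Bop1 (0.869), Ppp2r5b (0.857), Rdh11 (0.851), Nudcd2 (0.841), Scrib (0.840), and Dusp3 (0.836). Of these 10, 3 are in the sterol lists (Cyp51, Nsdhl, and Rdh11). The 12 points share 6 mice and 2 tissues. When the 6 differences between tumor and own liver were used in place of the levels, 1 of the 10 was retained, Cyp51.

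The genes lie on 6 chromosomes (GRCm38, GENCODE M21): Hmgcs1 at chr13:119690379-119708260 (+), Idi1 at chr13:8885501-8892451 (+), Sqle at chr15:59315077-59331192 (+), Lss at chr10:76531588-76557138 (+), Fdps at chr3:89093588-89101959 (−), Fdft1 at chr14:63145150-63179578 (−), and Mvd at chr8:122433601-122443422 (−). Of these 6, the only ones examined, chromosome 15 held the highest median. The median difference between tumor and own liver over 533 other genes of chromosome 15 was above 0 in all 6 mice, from 0.03 in T-HCA992 to 0.58 in T-HCC662, with 0.39 in TCi-HCC981. Sqle lies there, and the part of the chromosome in its values was not tested. On chromosome 13 the median over 461 genes ran from −0.54 in T-HCC941 to 0.00, on chromosome 8 from −0.33 to 0.03, on chromosome 10 from −0.18 to 0.10, on chromosome 14 from −0.20 to −0.05, and on chromosome 3 from −0.11 to 0.10.

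Reads of some of the 7 genes could be shared with other sequences. Fdft1 overlaps Ctsb, the gene of a lysosomal protease on the opposite strand, which was at 476 to 1412 CPM in livers and 557 to 1448 CPM in tumors and did not pass the test (log2 fold change 0.02, adjusted p = 0.969, edgeR). Processed pseudogenes with at least 90% identity over at least 200 bases were found for Fdps (5, at 91.1% to 98.9%), Idi1 (3, at 90.4% to 97.7%), and Fdft1 (1, at 97.4%), and none of them has a count of its own in the files. Fdps also overlaps a protein-coding gene on its own strand, Gm43738 (677 bases at 100% identity), and Mvd one on the opposite strand, Gm20388. Hmgcs1 and Lss each overlap an antisense gene, and Idi1 an unclassified transcript on the opposite strand. Whether counting used strand, and how multiply aligned reads were handled, is not given in the sources used here, so reads of these sequences cannot be told apart from those of the 6 genes. No such overlap or copy was found for Sqle.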

How the data were processed

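Poly(A) RNA of 6 livers and 6 liver tumors was sequenced by the authors as 150-bp paired ends, filtered at a Phred score of 30, aligned with Subread-align (v1.6.4) to an mm10 genome that included mCherry, and counted with featureCounts (v1.6.4). The deposited values are raw read counts per gene symbol, without normalization. The annotation release, strandedness, and handling of reads with several alignments are not given in the sources used here. The authors corrected for sequencing run, which the labels do not give, so no such term was fitted.

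Counts were tested with edgeR (v4.0.16, quasi-likelihood F test, TMM, filterByExpr, R v4.3.3) and Benjamini-Hochberg adjustment over all genes, with a threshold of 0.05. CPM use TMM-scaled totals, and log2 CPM a prior count of 2. Intervals are 95% t intervals of the fitted log2 fold change. Comparisons of all tumors with all livers used 2 groups (13822 genes), and the others used models of all 12 libraries (15182 genes). Alternatives were DESeq2 (v1.42.0), RLE scaling, no filter, the mouse as a block, the libraries of a comparison alone, and leaving out each library in turn. The scripts were tested on simulated data. The 7 genes, the lists, and the comparisons were chosen with earlier results of these data known. Named genes were the 7, up to 4 list genes per direction that passed, otherwise those of highest count, and the 10 most alike. Nr1h4 is named beside these for the limit of its call. Some list genes that this rule names are not reported here.

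One p21Tert liver is titled with a number that no tumor carries, and it was taken as the liver of T-HCC662 by elimination. A tumor and a liver of one number are from one animal and so are paired. As a check, a tumor's deviation from its group mean correlated with that of its own liver at r = 0.00583 to 0.542 (across genes, which are not independent replicates), where the p21TertCi mice, as a group of 2, share 1 value. The libraries of a group are separate animals. Totals of 14571716 to 26170661 counts put 1 read at 0.0358 to 0.0758 CPM, and the lowest level of the 7 genes was 4.66 CPM.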

Additional observations from a re-analysis of the deposited data

Results flagged for a closer look

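Of 35 groups of 4 to 6 libraries examined for the 7 genes, 2 had a library far from the rest, where chance gives about 1 in 20. Lss in the 6 tumors was highest in T-HCA992 at 390 CPM, with the next tumor at 158 CPM, and the gap was 0.678 of the whole range. Fdft1 in the 6 tumors was highest in T-HCC662 at 409 CPM, with the next tumor at 168 CPM, and the gap was 0.826 of the range, both above Dixon's critical value at 95%. In 28 comparisons of direction between groups, none had every sample of one group opposite to every sample of the other.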

How the results depend on the processing

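Of 11 comparisons, 8 gave 0 calls among the 7 genes under every alternative tried. DESeq2 called 1 gene in all tumors against livers (Sqle) and 1 in the tumors with neither driver (Lss), and leaving out 1 library gave 0 to 1 calls in those 2 comparisons and in the Ctnnb1 class. RLE scaling, no filter, and fits of the compared libraries alone called none of the 7. Over all genes, DESeq2 called 2407 in tumors against livers, 2109 within p21Tert, 362 within p21TertCi, 6 for the interaction, 2126 in the Ctnnb1 class, 2240 in the tumors with neither driver, 3111 for Ctnnb1 against the other tumors, 105 between the Egfr or Hras class and the class with neither driver, 42 between livers, and 165 between p21TertCi and p21Tert tumors without Ctnnb1 mutation. Within p21TertCi, RLE scaling called 1 gene and no filter 2, and fits of the compared libraries alone called 839 for Ctnnb1 against the other tumors and 0 between p21TertCi and p21Tert tumors without Ctnnb1 mutation. Leaving out 1 library moved the counts of all tumors against livers from 863 to 1988, of p21Tert from 240 to 1192, of the Ctnnb1 class from 410 to 1329, of the Egfr or Hras class from 1079 to 3270, of the tumors with neither driver from 196 to 1463, and of Ctnnb1 against the other tumors from 437 to 2121. The causes were not tested.

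With the mouse as a replicate block, none of the 7 genes was called. The median over the 7 turned sign in the tumors with neither driver (−0.12), between these and the Egfr or Hras class (0.64), and between p21TertCi and p21Tert tumors without Ctnnb1 mutation (0.31). Between groups of tumors, the block compares differences from own livers, while the main fits compare tumor levels. A changed sign there is thus between unlike contrasts. Calls over all genes went to 1801 in the Egfr or Hras class, 237 in the tumors with neither driver, 441 for Ctnnb1 against the other tumors, and 0 between p21TertCi and p21Tert tumors without Ctnnb1 mutation. With the block and without the T-HCC662 mouse they went to 649 within p21Tert, 29 in the Ctnnb1 class, 1592 in the Egfr or Hras class, 222 in the tumors with neither driver, 77 for Ctnnb1 against the other tumors, and again 0 in the last of these. Log2 fold changes that turned sign under the block were, in the tumors with neither driver, Hmgcs1 at −0.12, Idi1 at −0.42, Fdps at −0.21, Fdft1 at −0.10, and Mvd at −0.28 (−0.12, −0.42, −0.21, −0.10, and −0.29 without the T-HCC662 mouse), Mvd in the Egfr or Hras class at 0.51 (0.51), and Idi1 in Ctnnb1 against the other tumors at 0.39. Without the T-HCC662 mouse alone, Fdps was at −0.20 in all tumors against livers, Lss at −0.67, Fdps at −0.44, and Fdft1 at −0.21 in the Ctnnb1 class, and Fdps at −0.30 and Fdft1 at −0.36 in Ctnnb1 against the other tumors. 

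Leaving out each library in turn changed the sign of these log2 fold changes. Across them, in all tumors against livers, Fdps ran from −0.12 to 0.66. In the Ctnnb1 class, the ranges were Sqle from −0.15 to 1.97, Lss from −0.55 to 1.21, Idi1 from −0.16 to 0.68, Fdps from −0.59 to 1.72, and Fdft1 from −0.28 to 1.56. In the Egfr or Hras class, the ranges were Hmgcs1 from −0.054 to 0.51, Fdft1 from −0.0614 to 0.21, and Mvd from −0.65 to 0.39. In the tumors with neither driver, the ranges were Hmgcs1 from −0.23 to 1.08, Idi1 from −0.37 to 1.05, Fdps from −1.21 to 1.24, Fdft1 from −0.0554 to 0.26, and Mvd from −0.70 to 1.37. In Ctnnb1 against the other tumors, the ranges were Hmgcs1 from −0.29 to 1.23, Sqle from −1.86 to 0.25, Lss from −1.78 to 0.12, Idi1 from −0.56 to 0.35, Fdps from −0.39 to 2.01, and Fdft1 from −0.38 to 1.45. In these comparisons the other log2 fold changes of the 7 genes kept their sign when a library was left out, and those between genotypes and between the classes without Ctnnb1 mutation changed as the report gives them. With 2 tumors in a class, the lone tumor left is assumed to vary like the other groups. Depth kept none of the 7 genes under the filter on low counts, and the intervals rest on 2 to 6 animals a group.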
